A study of Mus musculus with 6 samples.

Results

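A set of 10 genes of T cell costimulation was followed through mouse Th17 cells that were cultured with or without the glucose analogue 2-deoxyglucose (2DG). They were chosen by name, with earlier results of these data known. The 10 genes are Cd28, Icos, Cd27, Tnfrsf4, Tnfrsf9, Tnfrsf18, Tnfrsf1b, Cd40lg, Tnfsf8 and Tnfsf11. Each of the 10 was found by its symbol as 1 row among the 23203 loci of the deposited expression table, alone in its locus. All 10 passed the filter on low values used for testing, which asked that the 6 libraries average 1 FPKM or more. FPKM divides a gene's fragments by transcript length and by the fragments of the library, so levels of different genes can be set side by side per length.

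The libraries came from naive mouse CD4 T cells cultured for 48 h, 3 with vehicle (DMSO) and 3 with 250 µM 2DG, which is used to inhibit glycolysis. In both groups the cells were stimulated through CD3e by a plate-bound antibody (10 µg/ml) and through CD28 itself by an antibody (1 µg/ml). The Th17 cytokines were also the same for both groups: 20 ng/ml of IL-6, 2.5 ng/ml of TGFb1 and 10 ng/ml of IL-23. The labels give no strain, age or sex of the mice and do not say if replicates are separate animals or cultures. The sample titles carry the numbers 17, 42 and 43 in each group, called replicates 1, 2 and 3 here, and no label says whether a shared number marks a shared animal or experiment. The p-values thus measure the spread among these 6 libraries only, and that spread may be technical.

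Costimulation is the second signal that a T cell needs beside its antigen receptor. CD28 and ICOS, members of the immunoglobulin superfamily, bind B7 proteins on antigen-presenting cells and recruit PI3 kinase. The receptors of the tumour necrosis factor (TNF) superfamily, OX40 (Tnfrsf4), 4-1BB (Tnfrsf9), GITR (Tnfrsf18), TNFR2 (Tnfrsf1b) and CD27, recruit TRAF adaptors and lead to NF-kB. In the other direction the ligands CD40L (Cd40lg), CD30L (Tnfsf8) and RANKL (Tnfsf11) are shown by the T cell to cells that carry CD40, CD30 and RANK.

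With 2DG, Cd40lg transcripts rose about 2.17-fold, and it was the only member called. The other 9 members did not pass the test. Among them the TNF receptor genes Tnfrsf18, Tnfrsf9 and Tnfrsf4 had lower means with 2DG and the ligand gene Tnfsf11 a higher mean. So 1 of 10 members was called higher, where 1.53% of the 10228 tested loci were, and 0 of 10 were called lower, where 1.19% were (limma, Benjamini-Hochberg adjusted p under 0.05). At an unadjusted p under 0.05 in the same test, 3 members were higher (9.07% of all tested loci) and 4 were lower (8.82%). The 3 vehicle and 3 2DG values did not overlap for 5 of 10 members, beside 23.7% of tested loci. The 5 were Cd40lg, Tnfsf11 and Cd27, which lay higher with 2DG, and Tnfrsf4 and Tnfrsf18, which lay lower. The median log2 fold change of the members was -0.22, beside -0.01 for all tested loci, and the median of its absolute size was 0.52, beside 0.13. Since the members were chosen with earlier results of these data known, these comparisons with all loci are descriptions and not tests.

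Read counts were not used here, and absolute depth and counting error are therefore unknown. Relative to vehicle replicate 1, a rough depth read from the steps of low values was lowest in vehicle replicate 2 (0.412) and highest in 2DG replicate 1 (1.102). The 75th percentiles of the libraries ran from 10.9 to 11.6 FPKM. Across log2 values outside small RNA genes, libraries of 1 group correlated with r from 0.982 to 0.989 and libraries of different groups with r from 0.969 to 0.981. Of 7 T cell markers listed for a check of the label, 6 were in the table and none was called, with sums of 1016 to 1116 FPKM with vehicle and 980 to 1075 FPKM with 2DG. Il17a, the gene of the cytokine that defines Th17 cells, was at 235 to 267 FPKM with vehicle and at 574 to 706 FPKM with 2DG.

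The transcript levels of the members covered a wide range. In vehicle cultures Tnfrsf4 was the most abundant at 282.6 ± 47.4 FPKM, above 97.0% of tested loci by its mean over all libraries, followed by Tnfrsf18, Cd28 and Tnfrsf9 at 224.3, 150.6 and 137.1 FPKM. The ranges of neighbours in this order overlapped down to Tnfrsf9. Below it Icos, Tnfrsf1b and Cd27 followed without overlap, at 69.8, 31.1 and 17.5 FPKM. Tnfsf11 and Cd40lg (8.12 and 7.39 FPKM) overlapped each other, and Tnfsf8 was last at 3.29 FPKM. With 2DG the order changed in 2 places, with Cd28 above Tnfrsf18 and Cd40lg above Tnfsf11. With 2DG the lowest Cd28 value, 151.5 FPKM, lay above the highest Tnfrsf18 value, 114.8 FPKM, whereas with vehicle their ranges overlapped. Costimulatory receptors were thus expressed at higher levels than the 3 ligands in each group.

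**Figure D1:**
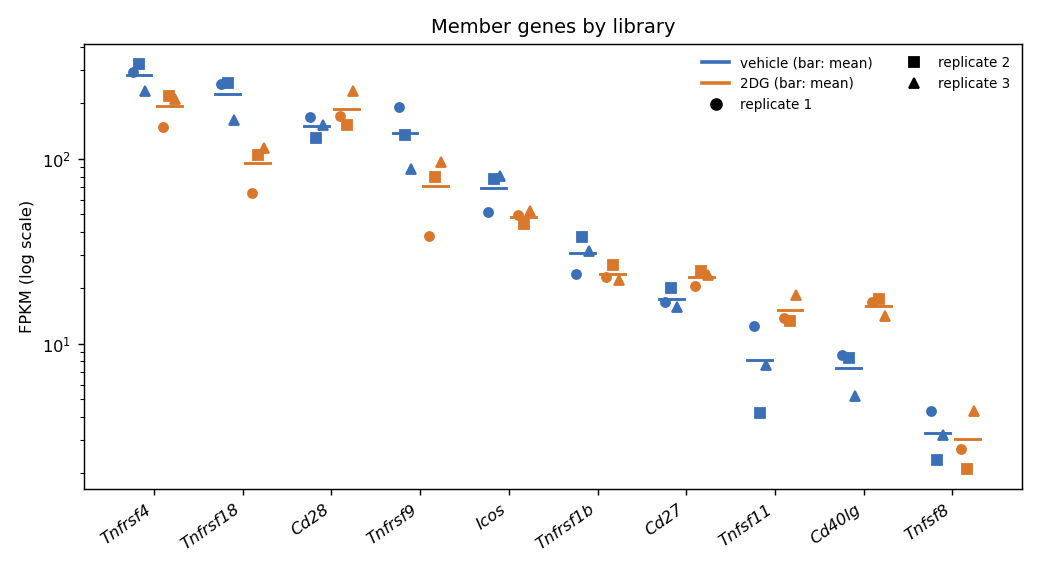
FPKM of the 10 members in each library on a log axis, vehicle in blue and 2DG in orange, with symbols for replicates 1 to 3 and bars at the means. The groups are apart for Tnfrsf4, Tnfrsf18, Cd27, Tnfsf11 and Cd40lg and overlap for the other members.

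Cd40lg encodes CD40 ligand, through which helper T cells activate B cells and dendritic cells (chromosome X, 57212143 to 57224042, plus strand, GRCm38). It was at 8.63, 8.35 and 5.19 FPKM in vehicle replicates 1, 2 and 3 and at 16.8, 17.4 and 14 FPKM in the 2DG libraries. Every 2DG library lay above every vehicle library. The means were 7.39 ± 1.91 and 16.1 ± 1.78 FPKM (SD, n = 3 each), and the log2 fold change on the log2(FPKM + 1) scale was 1.05 ± 0.18 (SE, adjusted p = 0.036 by limma). Leaving out vehicle replicate 3 kept the call (adjusted p = 0.039), leaving out any of the other 5 libraries ended it (adjusted p from 0.053 to 0.13), while the log2 fold change stayed between 0.84 and 1.16. It also ended with no filter on low values (adjusted p = 0.082) and with both replicate 1 libraries left out (adjusted p = 0.14).

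Tnfsf11 encodes RANKL, the ligand that drives osteoclast formation and is made by Th17 cells (chromosome 14, 78277445 to 78308043, minus strand). It was at 12.5, 4.20 and 7.69 FPKM with vehicle and at 13.7, 13.2 and 18.4 FPKM with 2DG. Vehicle replicate 1 lay close to the 2DG libraries, and vehicle replicate 2, the library of lowest estimated depth, lay farthest from them. The part of depth in this was not tested. The log2 fold change was 0.91 with a 95% interval from 0.15 to 1.68, and it did not pass over all loci (adjusted p = 0.20). Without vehicle replicate 2 it was 0.56, and without vehicle replicate 1 it was 1.25.

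Tnfsf8 encodes CD30 ligand (chromosome 4, 63831308 to 63861347, minus strand). It was at 4.30, 2.35 and 3.22 FPKM with vehicle and at 2.70, 2.1 and 4.32 FPKM with 2DG. The groups overlapped throughout, and the 95% interval of the log2 difference ran from -0.67 to 0.48 (adjusted p = 0.87). Its direction changed with the libraries used.

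Cd28 encodes the receptor that the culture's antibody engages (chromosome 1, 60716800 to 60773359, plus strand). It was at 169, 130 and 153 FPKM with vehicle and at 171, 151 and 233 FPKM with 2DG. Only 2DG replicate 3 stood above the rest, and without it the log2 difference was 0.10 in place of 0.28. The 95% interval of the latter ran from -0.13 to 0.69 (adjusted p = 0.47).

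Icos encodes the inducible relative of CD28 (chromosome 1, 60977927 to 61000320, plus strand, where the predicted gene Gm37039 overlaps it). It was at 51.8, 77.6 and 80.1 FPKM with vehicle and at 49.9, 44.1 and 51.9 FPKM with 2DG. Vehicle replicate 1 fell within the 2DG range, which the other vehicle libraries exceeded. The log2 difference was -0.49 ± 0.17 (SE, adjusted p = 0.19). Without vehicle replicate 1 it was -0.69 and passed the threshold (adjusted p = 0.036), the only setting in which a CD28-type member was called.

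Cd28 and Icos lie on either side of Ctla4, the gene of the inhibitory receptor that competes with CD28 for B7 proteins, with gaps of 113640 and 62094 bases. Ctla4 was at 584, 619 and 559 FPKM with vehicle and at 358, 395 and 412 FPKM with 2DG, a mean lower by a factor of 1.51 (log2 fold change -0.60 ± 0.09, SE, adjusted p = 0.022). That call was lost without any 1 library (adjusted p from 0.051 to 0.10), after rescaling all libraries to equal sums (0.20) and with a replicate block, in which the model also holds the replicate number (0.064). The call was kept with equal sums outside small RNA genes (0.016) and with quantile normalization (0.022). Small RNA genes made up 69.81% to 76.08% of the FPKM sum of each library. The ratio of Cd28 to Icos FPKM was 3.26, 1.68 and 1.91 with vehicle and 3.42, 3.44 and 4.49 with 2DG. The ratio of Ctla4 to Cd28 went from 3.46 to 4.76 with vehicle down to 1.77 to 2.61 with 2DG, while that of Ctla4 to Icos overlapped (6.98 to 11.3 and 7.18 to 8.97). These ratios were chosen after the values were seen and were not tested. Every 2DG library thus held more Cd28 relative to Ctla4 than any vehicle library.

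Tnfrsf18 encodes GITR (chromosome 4, 156026164 to 156028895, plus strand) and had the largest difference among the members. It was at 255, 256 and 162 FPKM with vehicle and at 65.1, 104 and 115 FPKM with 2DG. The lowest vehicle library lay above the highest 2DG library. The mean was lower by a factor of 2.37 and the log2 fold change was -1.25 ± 0.26 (SE), with a 95% interval from -1.85 to -0.64, and it missed the threshold (adjusted p = 0.056). It passed with equal sums (adjusted p = 0.023), with equal sums outside small RNA genes (0.042) and with the loci alone that the authors' table marks OK (0.044). It did not pass with the replicate block (0.12) or without any 1 library (adjusted p from 0.053 to 0.16). With the replicate 1 libraries left out its log2 fold change was -0.89 (adjusted p = 0.21). In that setting those of Cd40lg (1.13) and Tnfsf11 (1.3) were larger in size. An antisense gene, Gm16008, overlaps it, and since the use of strand in the counting is unknown, reads of both cannot be told apart.

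Tnfrsf4 encodes OX40, a survival receptor of activated CD4 T cells (chromosome 4, 156013843 to 156016612, plus strand), and ends 9551 bases before Tnfrsf18. It was at 293, 324 and 231 FPKM with vehicle and at 148, 218 and 211 FPKM with 2DG. The groups did not overlap, but vehicle replicate 3 and the upper 2DG libraries lay close together. The log2 difference was -0.56 ± 0.18 (SE, adjusted p = 0.18). The ratio of Tnfrsf4 to Tnfrsf18 FPKM lay between 1.15 and 1.42 with vehicle and between 1.84 and 2.27 with 2DG. Relative to Tnfrsf18, every 2DG library thus held more Tnfrsf4 than any vehicle library, while both genes had lower means with 2DG. This ratio was also chosen after the values were seen and was not tested.

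The gene on the other side of Tnfrsf4, Sdf4, which encodes a calcium-binding protein of the Golgi, ends 232 bases before it on the same strand by the GENCODE coordinates. In the RefSeq promoters used below, the window before the Tnfrsf4 start ends at 156013694. Sdf4 ends at 156013610, so the gap to that start is shorter. Sdf4 was at 102, 111 and 80.8 FPKM with vehicle and at 56.1, 78.1 and 77.0 FPKM with 2DG (log2 difference -0.48, adjusted p = 0.20). The ratio of Tnfrsf4 to Sdf4 stayed between 2.64 and 2.91 over the 6 libraries, although the level of each gene differed widely between its highest and lowest library. It was 2.86 to 2.91 with vehicle and 2.64 to 2.80 with 2DG. This ratio, too, was chosen after the values were seen. Whether reads of one of these genes were assigned to the other was not tested.

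The other neighbours of the members were read in the same way. Of 24 genes listed as lying near the members, 14 were tested. Among these, 0 were called higher by limma and Ctla4 alone was called lower, where 1.53% and 1.19% of all tested loci were. At an unadjusted p under 0.05 in the same test, 1 was higher and 4 were lower (9.07% and 8.82% of all tested loci). The groups lay apart for 5 of the 14, beside 23.7% of all tested loci. Ctla4, Sdf4, Park7 and Vamp3 were lower with 2DG and Arhgef6 higher. Park7, which starts 124 bases from Tnfrsf9 on the other strand, was at 236.1 to 273.7 FPKM in vehicle libraries and 184.1 to 233.5 FPKM in 2DG libraries (adjusted p = 0.22). Arhgef6, whose gene ends 7442 bases from that of Cd40lg, was at 11.9 to 15 and 17.5 to 20.7 FPKM, apart and higher with 2DG like Cd40lg (log2 difference 0.48, adjusted p = 0.069). Vamp3, a gene farther out on the side of Uts2 from Tnfrsf9, was at 38.6, 38.3 and 37.7 FPKM with vehicle and at 32, 27.3 and 29.5 FPKM with 2DG (log2 difference -0.36 ± 0.08, SE, adjusted p = 0.069). For the other 9 tested genes of the list, Raph1, B3galt6, Errfi1, Tnfrsf8, Vps13d, Tapbpl, Vamp1, Akap11 and Epsti1, the groups overlapped, with log2 differences from -0.25 to 0.19. The 10 untested genes of the list averaged under 1 FPKM. Vamp3, B3galt6 and Errfi1 were named after their values were seen.

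**Figure D2:**
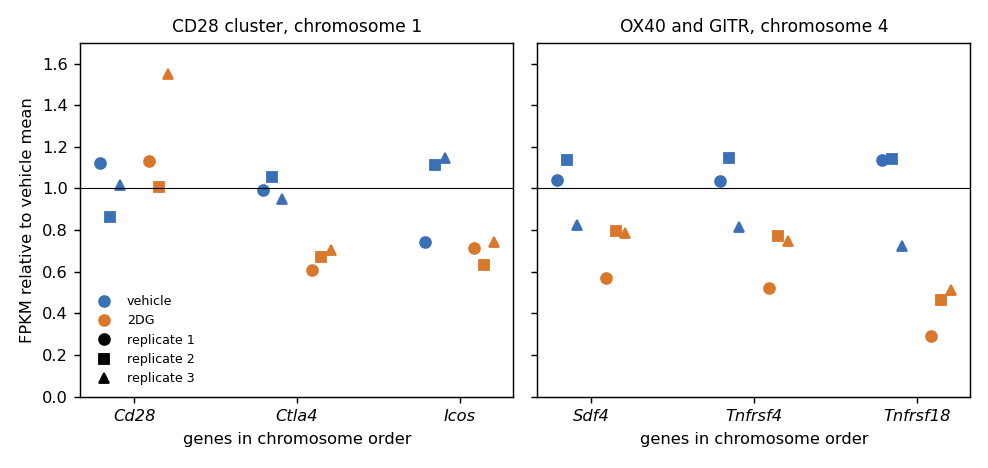
FPKM of each gene divided by its vehicle mean, for Cd28, Ctla4 and Icos in chromosome order on the left and Sdf4, Tnfrsf4 and Tnfrsf18 on the right, with points for single libraries and symbols for replicates 1 to 3. Ctla4, Sdf4, Tnfrsf4 and Tnfrsf18 are lower in all 2DG libraries than in any vehicle library, and Cd28 and Icos are not. The points of Sdf4 and Tnfrsf4 have nearly the same arrangement.

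Tnfrsf9 encodes 4-1BB (chromosome 4, 150914562 to 150946102, plus strand; Camta1 overlaps it on the other strand). It was at 189, 134 and 88.3 FPKM with vehicle and at 38.2, 79.9 and 96.1 FPKM with 2DG. The replicate 1 libraries held both extremes, and vehicle replicate 3 lay below 2DG replicate 3. The log2 difference was -0.97 ± 0.39 (SE, adjusted p = 0.25), and with the replicate 1 libraries left out it was -0.31 (adjusted p = 0.66). Its standard error was the highest among the members.

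Tnfrsf1b, for the TNF receptor TNFR2 of activated and regulatory T cells (chromosome 4, 145213463 to 145246870, minus strand), was at 23.9, 37.6 and 31.7 FPKM with vehicle and at 22.9, 26.6 and 22.0 FPKM with 2DG. The groups overlapped through vehicle replicate 1, and the 95% interval of the log2 difference ran from -0.74 to 0.04 (adjusted p = 0.32). Cd27 encodes a receptor present on naive T cells (chromosome 6, 125232622 to 125237010, minus strand, where Vamp1 overlaps it on the other strand). Among the members it was the only TNF receptor gene that lay higher with 2DG. It was at 16.7, 19.9 and 15.8 FPKM with vehicle and at 20.4, 24.8 and 23.4 FPKM with 2DG. The values separated by a narrow margin, with a log2 difference of 0.37 ± 0.11 (SE, adjusted p = 0.15).

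Upstream sequence was read for the members to show which letters of NF-kB, AP-1 and NFAT sites, factors active downstream of the T cell receptor and of costimulation, stand near their starts. The RefSeq promoter table (build GRCm38.p6) gave 8 windows for 7 of 10 members, 2 of them for Tnfrsf9. Cd28, Icos and Cd40lg had no entry. The 250 bases before each start were searched on both strands for GGAAA (the NFAT core), TGANTCA (AP-1) and the NF-kB consensus, whose letters can overlap those of GGAAA. The inner start of Tnfrsf9 was the only one of the 8 windows with an AP-1 or an NF-kB match, and it held both. Of 32851 windows of the same length in the table, 3.90% held an NF-kB match, 6.75% an AP-1 match, 0.213% both, and 55.6% held GGAAA. The GGAAA letters stood in 7 of the 8 windows, with Tnfrsf1b as the exception. A match is a description of letters and shows no binding, and the FPKM values do not say which start of Tnfrsf9 was used.

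The sequences below show the difference between the 2 RefSeq starts of Tnfrsf9, and the stretch before Tnfrsf18, the member with the largest difference. By the GENCODE coordinates Tnfrsf9 begins at 150914562, before both of its windows, so the outer start is outer among the RefSeq starts only. The bases before the GENCODE start were not read for Tnfrsf9. Capitals mark the motif matches, and all are 5′ to 3′ on the plus strand of chromosome 4 of GRCm38. The Tnfrsf9 window before the outer start, chr4:150919905-150920154, has 2 GGAAA matches, the second of them on the minus strand. The window before the inner start is shown as the 169 bases outside annotated exons, chr4:150927749-150927917, and as 2 short sites of 20 bases. Both sites lie in the 81 bases of the window that annotated exons cover. The first site, chr4:150927953-150927972, covers positions -46 to -27 before the start with 2 overlapping NF-kB matches, and the second, chr4:150927977-150927996, covers -22 to -3 with the AP-1 match. For Tnfrsf18 the 92 bases outside annotated exons are given, with 1 of its 2 GGAAA matches, on the minus strand, chr4:156026072-156026163.
Tnfrsf9 outer start: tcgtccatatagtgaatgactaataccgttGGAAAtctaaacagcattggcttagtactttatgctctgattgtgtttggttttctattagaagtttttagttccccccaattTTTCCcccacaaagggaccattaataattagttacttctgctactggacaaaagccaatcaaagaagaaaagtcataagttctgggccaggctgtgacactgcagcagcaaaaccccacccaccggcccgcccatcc
Tnfrsf9 inner start: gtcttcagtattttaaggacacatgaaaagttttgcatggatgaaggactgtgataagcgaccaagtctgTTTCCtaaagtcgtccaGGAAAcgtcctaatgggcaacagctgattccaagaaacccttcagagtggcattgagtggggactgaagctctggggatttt
Tnfrsf9 NF-kB site: gctGGGGATTTCCCaggagg
Tnfrsf9 AP-1 site: gctcagtTGAGTCAcaggtc
Tnfrsf18: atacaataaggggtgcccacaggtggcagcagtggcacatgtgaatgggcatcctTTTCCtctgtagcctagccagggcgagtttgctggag

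The binding partners of the members showed changes in both directions. Of 13 partner genes, 7 passed the filter on low values. Of these 7, 1 rose and 1 fell, where 1.53% and 1.19% of all tested loci were called higher and lower. Cd86, which encodes a B7 protein bound by CD28 and CTLA-4 and can also be made by activated T cells, fell from 6.42, 8.80 and 7.24 FPKM with vehicle to 1.12, 2.12 and 1.81 FPKM with 2DG. The groups lay far apart, the log2 fold change was -1.67 ± 0.18 (SE, adjusted p = 0.0078), and the call was kept without each library in turn (adjusted p up to 0.034). Tnfsf4, for OX40 ligand, rose from 2.43, 2.39 and 3.32 FPKM to 7.06, 4.70 and 6.85 FPKM (log2 fold change 0.95 ± 0.17, SE, adjusted p = 0.041). Leaving out 2DG replicate 2 kept that call (adjusted p = 0.042). Leaving out each of the other 5 libraries ended it (adjusted p up to 0.14), as did equal sums (0.062), no filter (0.088) and the replicate block (0.064).

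Tnfsf9, the gene of 4-1BB ligand, ranged from 3.57 to 5.03 FPKM in vehicle libraries and from 5.15 to 8.43 FPKM in 2DG libraries (adjusted p = 0.18). Cd40, the receptor for CD40L, was at 0.572 to 1.42 and 1.49 to 2.76 FPKM (adjusted p = 0.16). The ligands of TNFR2 had means on opposite sides, with Tnf at 52.3 and 68.5 FPKM (adjusted p = 0.53) and Lta, for lymphotoxin alpha, at 219.7 and 114.4 FPKM (adjusted p = 0.085). Tnfrsf8, for CD30, ranged from 10.1 to 32.4 FPKM in vehicle libraries and from 12 to 20.2 FPKM in 2DG libraries (adjusted p = 0.79). Under the filter, Cd70, for the ligand of CD27, was at 0.280, 0.326 and 0.240 FPKM with vehicle and at 0.762, 1.14 and 0.658 FPKM with 2DG. Cd80, Icosl, Tnfrsf11a and Tnfrsf11b did not exceed 0.696 FPKM in any library, and Tnfsf18, for GITR ligand, was listed at 0 in all. The cultures thus held transcripts of both sides of the CD40, OX40, 4-1BB, CD30 and TNFR2 pairs, and of Cd28 with Cd86. Cd40 itself was near the filter on low values.

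**Figure D3:**
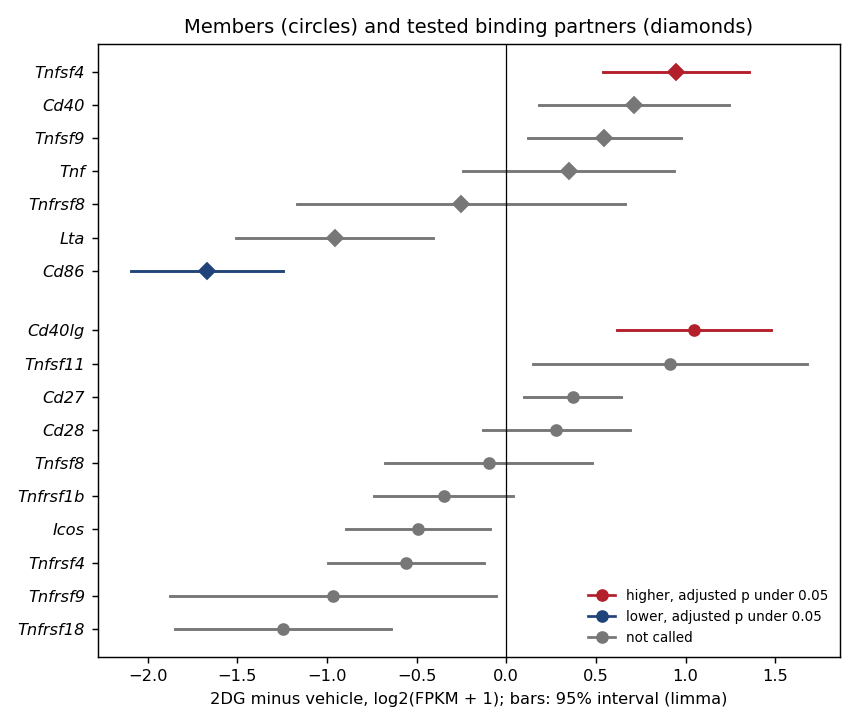
Log2 difference between 2DG and vehicle with its 95% interval for the 10 members (circles) and the 7 tested binding partners (diamonds). Red marks Cd40lg and Tnfsf4, called higher, blue marks Cd86, called lower, and grey genes were not called.

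Around the members, the wider families and the signalling steps were read from lists, which were also chosen with earlier results of these data known. Of all tested loci, limma called 1.53% higher and 1.19% lower. At an unadjusted p under 0.05 in the same test these shares were 9.07% and 8.82%. Outside the members, 0 of 12 tested genes of the TNF receptor superfamily were called by limma (1 higher and 1 lower at an unadjusted p under 0.05), with a median log2 difference of 0.04. Of 7 tested TNF ligand genes outside the members, Tnfsf4 was the only one called, and the median was 0.35. In the CD28 and B7 families 2 of 7 rose and 2 fell. The 2 that rose were Pdcd1, for the inhibitory receptor PD-1 (28.1, 40.5 and 42.5 FPKM against 108, 102 and 79.7 FPKM, adjusted p = 0.016), and Pdcd1lg2, for its ligand PD-L2 (2.66 ± 0.495 against 6.26 ± 0.0747 FPKM, adjusted p = 0.016). Both calls were lost without 2DG replicate 1 or 2DG replicate 2 (adjusted p up to 0.065) and with the replicate block (0.062 and 0.053). The 2 that fell were Ctla4 and Cd86.

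Below the receptors no gene of either signalling list was called. Of 33 TRAF adaptor and NF-kB genes, all tested, 0 were called in either direction by limma (7 higher and 2 lower at an unadjusted p under 0.05), and their log2 differences ran from -0.44 to 0.58. Of 27 genes of CD28 and ICOS signalling 0 were called (2 higher and 4 lower at an unadjusted p under 0.05). Of 7 genes of RNA-binding repressors, a group that includes the Roquin and Regnase proteins known to act on Icos and Tnfrsf4 messages, only Zc3h12d was called. It went from 61.0 ± 2.38 to 81.4 ± 3.62 FPKM (adjusted p = 0.037), and the call was lost without any 1 library (adjusted p from 0.069 to 0.12) and with the replicate block (0.085).

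Of 26 tested transcription factor genes known to act on member genes, 2 rose and 3 fell. At an unadjusted p under 0.05 in the same test 10 were higher and 6 lower, where 9.07% and 8.82% of all tested loci were. The groups lay apart for 16 of the 26, beside 23.7% of all tested loci. This list was chosen with earlier results of these data known, so its excess over all loci is a description and not a test. Egr3 and Runx1 rose, by 0.88 and 0.83 on the log2 scale (adjusted p = 0.042 and 0.030). Batf3, Fosl2 and Ets1 fell by 1.29, 0.79 and 0.55 on the log2 scale (adjusted p = 0.019, 0.037 and 0.018). None of these 5 calls was kept without each library in turn. Those of Egr3 and Fosl2 were lost without any 1 library, that of Runx1 without any but 2DG replicate 3. Ets1 kept its call without vehicle replicates 1 or 3 alone, and Batf3 without vehicle replicates 1 or 2 or 2DG replicate 2 alone. With the replicate block all 5 were lost (adjusted p from 0.054 to 0.086).

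Markers of other cells were counted beside these genes. The 4 genes of the regulatory T cell list were Foxp3, Ikzf2, Gpr83 and Izumo1r. GITR, OX40, ICOS, TNFR2 and CTLA-4 are abundant in that cell type. The 4 genes summed to 86.0 to 139.8 FPKM with vehicle and to 39.2 to 52.1 FPKM with 2DG. Of the 4, 2 were called by limma, both lower, where 1.19% of all tested loci were called lower. Foxp3 was not called. The highest value of any of the 4 was 108.3 FPKM, so 1 gene made up most of the sum in at least 1 library. None of the 4 was at 0 in every library, and Foxp3 shares its locus with another gene. The part of this in the lower means of the receptor genes was not tested. In these bulk libraries fewer cells of a type and less RNA per cell cannot be told apart. Beside Cd86 and Cd40, which antigen-presenting cells express, the 5 B cell markers summed to 0.620 to 3.71 FPKM with vehicle and to 0.0945 to 2.25 FPKM with 2DG. The 6 macrophage and monocyte markers summed to 1.5 to 4.71 and 1.34 to 3.36 FPKM and the 5 dendritic cell markers to 0.408 to 0.553 and 0.294 to 1.34 FPKM. The group ranges of these 3 sums overlapped, none of the markers was at 0 in every library, and no dendritic cell marker exceeded 0.471 FPKM.

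**Figure D4:**
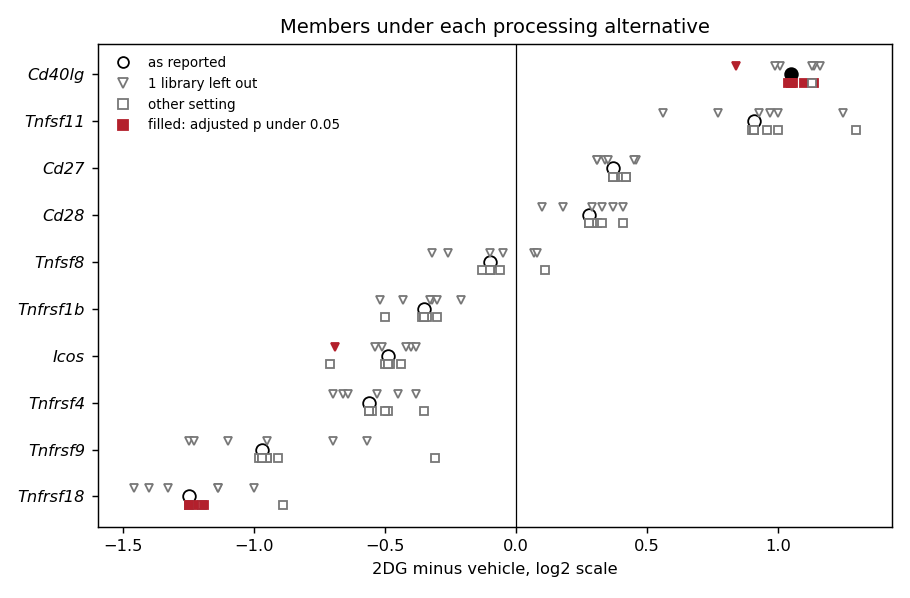
Log2 difference of each member as reported (black circle), with 1 library left out (triangles) and under the other settings (squares), filled where the adjusted p is under 0.05. Cd40lg, Tnfrsf18 and Icos are the members with filled points, and only Tnfsf8 has points on both sides of 0.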

How the data were processed

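RNA sequencing gave 3 vehicle and 3 2DG libraries. Tools in the submitters' processing notes are Cuffdiff 2.2.1.3, Cuffnorm 2.2.1.1, Cufflinks 2.2.1.0 and TopHat2 2.1.0, with the mm10 build. For settings, annotation and strand the sources used here give nothing. The authors deposited 1 value per locus and library, read here as FPKM from the layout per the file headers, which do not spell out the unit.

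The 10228 of 23203 loci that averaged 1 FPKM or more were tested on log2(FPKM + 1) by limma 3.58.1 (R 4.3.3). The pseudocount of 1 understates changes of low genes. The model had group as the only term, eBayes with trend, two-sided, Benjamini-Hochberg over all tested loci, threshold 0.05. An exact permutation test of 3 against 3 cannot go below 0.1, so none was used for single genes. The code was tested on simulated data. The members and lists were chosen with earlier results of these data known. Named genes are the members, genes past the threshold in each list (up to 6 per list), binding partners and neighbours, with the cell type checks. Of 213 list and marker symbols, 207 matched directly, 5 through synonyms and 1 not at all. GENCODE M21 (GRCm38, which is mm10) gave coordinates and overlaps. Figures were drawn with matplotlib 3.10.9. Alternatives changed the pseudocount, filter, scaling, block, eBayes options and libraries used.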

Additional observations from a re-analysis of the deposited data

How the results depend on the processing

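Of the 169 values of members recomputed under 17 alternatives, 155 kept their direction and side of the threshold, 7 lost the call, 4 gained one and 3 changed sign. The count of members called higher, 1 as reported, was 0 with no filter on low values and 0 with the replicate 1 libraries left out, and ranged from 0 to 1 with 1 library left out. The count of members called lower, 0 as reported, was 1 with equal sums, 1 with equal sums outside small RNA genes and 1 with loci of status OK alone (Tnfrsf18 each time), and ranged from 0 to 1 with 1 library left out. Tnfsf8, at -0.10 as reported, was at 0.07 without vehicle replicate 1, at 0.08 without 2DG replicate 2 and at 0.11 with the replicate 1 libraries left out; none of these passed, and with 1 library left out it ranged from -0.32 to 0.08. The count of all loci called, 278 as reported, was 165 with no filter, 157 with equal sums, 446 with robust eBayes, 71 with the replicate 1 libraries left out and between 79 and 167 with 1 library left out. Fewer libraries lower the counts by construction in part; otherwise the cause was not tested. With a minimum mean of 5 FPKM Tnfsf8 was not tested.

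With the replicate number added to the model as a replicate block, 101 loci were called, and the members gave the same calls, with Cd40lg at an adjusted p of 0.035. Deviations of same-numbered libraries correlated with r of -0.051, 0.193 and -0.112 for replicates 1, 2 and 3, and although the titles share 17, 42 and 43 across the groups, no label says what these numbers mark, so they were not taken as pairs. Of the 3 numbers, replicate 2 alone had its own number as the best match in both groups. Depth is unknown on an absolute scale, so no counting interval could be given.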
